A study of Drosophila melanogaster with 2 samples.

Results

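Intergenic D1 peaks are the D1-eGFP binding sites that lie outside genes and away from transcript starts. They were chosen by position alone: the summit of a peak in the reproducible set had to fall outside every annotated gene and more than 500 bp from every transcript start, with transposable elements not counted as genes. Of 3388 peaks in that set, 684 met the rule (20.2%, exact Clopper-Pearson 95% interval 18.8 to 21.6%). The other 2704 peaks were 1433 inside genes more than 500 bp from a start and 1271 within 500 bp of a start. The sequence in which a summit could have met the rule, called eligible here, came to 38.6 Mb of the 7 chromosomes and arms, counted without N bases.

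The study measured D1 binding by chromatin immunoprecipitation and sequencing (ChIP-seq) with an antibody against GFP. Both samples were biological replicates of 1 group of whole pupae, 24 hours old, from a transgenic Drosophila melanogaster line with GFP fused to the C-terminus of D1. Sex was not recorded, the tissues of the pupa were not separated, and no other line, stage or treatment was measured, so the values below are averages over all pupal cell types and no test between conditions was possible. The deposited lists held 30000 peaks for each replicate and 30000 for the pooled replicates. Another held the 3388 peaks that the authors selected by the irreproducible discovery rate (IDR), a measure of rank agreement between replicates. The 3388 highest pooled peaks gave the same values as this set, with 684 intergenic peaks. Agreement of each single peak between replicates is therefore not implied.

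D1 is an abundant chromosomal protein with AT hooks, short peptide segments that contact the minor groove of A/T-rich DNA. It is known for its place on the AT-rich satellite repeats of the centromeric regions and of the Y chromosome. Much of that satellite DNA is not in assembled chromosomes, and the peaks below lie in the assembled part of the genome. Intergenic sequence in Drosophila holds enhancers, insulators and unannotated transcripts, and long stretches of it flank many genes that control development.

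Sequences of 9 intergenic peaks show what the precipitated DNA looked like: 5 of the 7 highest, the pair with the longest runs of A and T and the pair poorest in A+T. Each is the 200 bp window around the summit, taken 5′ to 3′ from the plus strand of the Release 6 assembly (dm6), and capitals mark its longest uninterrupted run of A and T.
Sol1 to Cyp9f2, chr3R:12403034-12403233: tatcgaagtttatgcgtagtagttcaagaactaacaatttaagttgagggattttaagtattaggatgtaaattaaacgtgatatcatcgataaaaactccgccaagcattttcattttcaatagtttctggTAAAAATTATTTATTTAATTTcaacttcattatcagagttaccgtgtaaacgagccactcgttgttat
COX7AL2 to CG31668, chr2L:2202315-2202514: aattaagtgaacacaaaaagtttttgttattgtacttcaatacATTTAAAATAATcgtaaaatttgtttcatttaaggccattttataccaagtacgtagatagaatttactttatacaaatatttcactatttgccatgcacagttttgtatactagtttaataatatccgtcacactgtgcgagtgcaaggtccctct
CG18404 to lncRNA:CR46113, chr3R:30272622-30272821: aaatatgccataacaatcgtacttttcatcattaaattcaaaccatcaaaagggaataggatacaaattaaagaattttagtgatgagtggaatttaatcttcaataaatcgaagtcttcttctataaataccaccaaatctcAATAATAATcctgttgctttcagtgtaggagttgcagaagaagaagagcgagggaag
CG43245 to lncRNA:CR44544, chr3L:10776457-10776656: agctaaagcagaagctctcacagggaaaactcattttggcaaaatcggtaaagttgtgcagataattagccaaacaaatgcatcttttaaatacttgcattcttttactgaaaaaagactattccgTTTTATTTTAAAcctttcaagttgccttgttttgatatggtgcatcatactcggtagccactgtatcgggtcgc
lncRNA:CR45392 to lncRNA:CR43253, chr3L:18078062-18078261: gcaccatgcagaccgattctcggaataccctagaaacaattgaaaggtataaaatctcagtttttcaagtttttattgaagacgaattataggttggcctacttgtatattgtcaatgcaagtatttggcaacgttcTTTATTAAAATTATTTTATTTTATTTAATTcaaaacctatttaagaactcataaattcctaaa
ph-d to ph-p, chrX:2124123-2124322: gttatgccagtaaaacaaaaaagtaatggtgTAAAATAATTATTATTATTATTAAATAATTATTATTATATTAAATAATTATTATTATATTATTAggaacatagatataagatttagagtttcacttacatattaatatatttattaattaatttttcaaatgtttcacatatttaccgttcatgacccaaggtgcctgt
Ptp4E to lncRNA:CR44833, chrX:4956462-4956661: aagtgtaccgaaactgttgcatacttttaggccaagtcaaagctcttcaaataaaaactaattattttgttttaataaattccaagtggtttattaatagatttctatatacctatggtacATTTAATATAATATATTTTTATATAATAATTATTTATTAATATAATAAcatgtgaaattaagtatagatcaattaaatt
CG33795 to lncRNA:CR45754, chr3L:16174035-16174234: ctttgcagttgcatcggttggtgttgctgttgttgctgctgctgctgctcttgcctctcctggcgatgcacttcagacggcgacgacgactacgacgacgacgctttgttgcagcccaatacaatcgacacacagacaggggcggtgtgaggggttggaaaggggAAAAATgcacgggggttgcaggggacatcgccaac
lncRNA:CR44711 to GCS2alpha, chrX:21592132-21592331: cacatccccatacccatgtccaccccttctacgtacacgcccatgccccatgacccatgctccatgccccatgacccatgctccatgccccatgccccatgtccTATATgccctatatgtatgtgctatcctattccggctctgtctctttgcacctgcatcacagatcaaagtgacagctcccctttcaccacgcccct

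These 5 high windows were 63 to 71% A+T, and their longest A/T runs were 9 to 30 bp. The window between ph-d and ph-p, the paired genes of the Polycomb group protein Polyhomeotic, held a 64 bp run and 81% A+T, and the one between Ptp4E and lncRNA:CR44833 a 48 bp run and 80%. Over all intergenic peaks A+T content reached 83%, in the window beside CG46304. At the other end, the window beside CG33795 had 42.5% A+T and carried short trinucleotide repeats, and the one between lncRNA:CR44711 and GCS2alpha had 44.5% and a repeated motif rich in C.

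Peak signals are values from the authors' peak calling whose scale is unknown, and they serve to rank peaks within a list. Values of the IDR set and of each replicate are set side by side below as a description, since nothing in the sources shows that the lists share a scale. In the IDR set the intergenic peaks had signals between 142 and 792, with a median of 201, and the other IDR peaks had the same median of 201 and a maximum of 1204. Only 7 of the 100 highest IDR peaks were intergenic, and 93 were not. The middle of the signal range was therefore shared, while the top of the list held few intergenic peaks.

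The highest intergenic peak lay in a gap of 437 bp between the 3′ ends of Sol1 and Cyp9f2, a cytochrome P450 gene. Its signal was 792 in the IDR set, with 370 in replicate 1 and 432 in replicate 2. The next was a peak in the 5808 bp between COX7AL2 and CG31668 with a signal of 744 (347 in replicate 1 and 398 in replicate 2).

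The third and the twelfth peaks flank a pair of neighbouring Polycomb group genes on arm 2R, Psc and Su(z)2, which encode related proteins of the repressive complexes that also contain Polyhomeotic. One, between Su(z)2 and CG13323, lay 9389 bp from CG13323 and 27395 bp from Su(z)2. Its signal was 707, with replicate values of 378 and 330 for replicates 1 and 2. The other, between CG13321 and Psc, lay 3681 bp from CG13321 and 6604 bp from Psc. Its signal was 493, with replicate values of 208 and 291. The ph-d to ph-p peak had a signal of 374, with 220 in replicate 1 and 144 in replicate 2. Lower members lay beside the same genes. One lay in the CG13321 to Psc gap, 2524 bp from CG13321 and 7761 bp from Psc. Its signal was 298 (144 in replicate 1 and 141 in replicate 2). Another lay 35512 bp from Su(z)2 with a signal of 167. This grouping was chosen after the values were seen.

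The other peaks among the 12 highest lay beside uncharacterised or non-coding genes more often than beside named coding genes. The peak between CG44439 and CG14760 on 2R had a signal of 614, with 289 in replicate 1 and 332 in replicate 2. On 3R, the peak 40 bp beyond lncRNA:CR46113 had 600, with 267 in replicate 1 and 335 in replicate 2. A peak upstream of E(spl)malpha-BFM, a Notch target gene of the Bearded family, had a signal of 522, with 289 in replicate 1 and 222 in replicate 2. The peak between lncRNA:CR45424 and CG43389 had 523 in the IDR set, with 159 in replicate 1 and 375 in replicate 2.

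Among chromosomes the top signal fell in the order 3R (792), 2L (744), 2R (707), 3L (532, between CG43245 and lncRNA:CR44544), X (406) and 4 (303). The highest X peak lay between CG43658 and ppk23, a gene for an ion channel subunit of pheromone-sensing neurons, and had 217 in replicate 1 and 197 in replicate 2. On chromosome 4 the highest peak lay 1210 bp from lncRNA:CR43437 and had 168 in replicate 1 and 142 in replicate 2.

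Replicates were compared peak by peak through summits within 100 bp. A replicate 1 summit was found for 666 of the 684 intergenic peaks, a replicate 2 summit for 659, both for 642 and neither for 1. Since the authors derived the IDR set from the replicate and pooled lists, these counts are largely set by that selection. Over the 642 peaks the log2 ratio of replicate 1 to replicate 2 signal had an SD of 0.50 over peaks, a spread that a constant factor between the scales would not change. Pearson's r of the log2 signals was 0.61 and Spearman's rho 0.59, as a description across peaks that share their libraries. The signal of a single peak was thus less well determined than counts over many peaks.

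**Figure D1:**
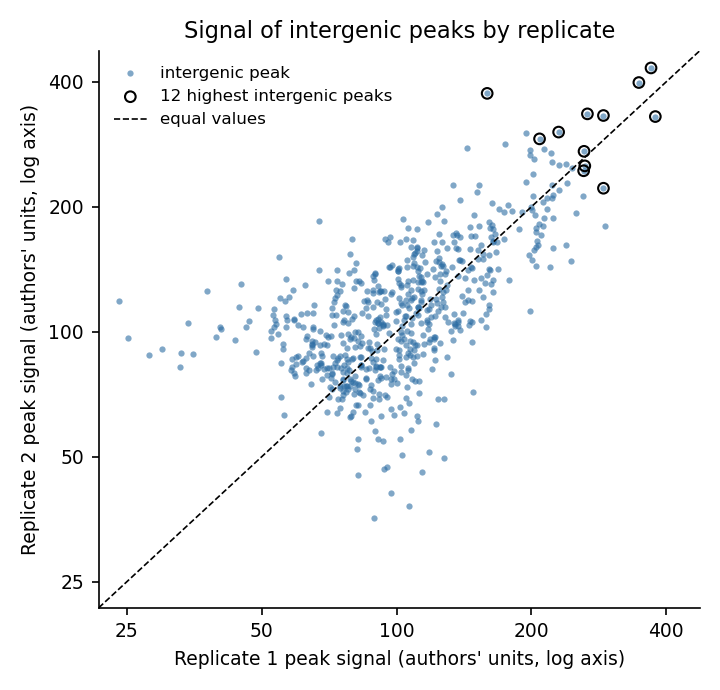
Signal of each of the 642 intergenic peaks with a summit in both replicate lists, replicate 1 on the x axis and replicate 2 on the y axis, in the authors' units on log axes, with the 12 highest intergenic peaks of the IDR set circled. The log2 ratio of the points has an SD of 0.50, and the circled peaks lie at the upper right. The dashed line marks equal values in the authors' units.

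For the spread of a count or mean, each replicate's own 3388 highest peaks were put through the same rule. Replicate 1 gave 715 intergenic peaks and replicate 2 gave 646, a share of 20.1% ± 1.44 (SD, n = 2). Of the 715, 493 (69.0%) overlapped a peak among the highest 3388 of replicate 2, and of the 646, 487 (75.4%) overlapped one of replicate 1. Peaks that were not intergenic overlapped in 71.1% of replicate 1 and 69.4% of replicate 2.

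The 500 bp limit cuts through a continuous set. The members nearest to it lay 504 bp from the start of lncRNA:CR45973 (signal 170), 505 bp from that of CG10428 (248) and 507 bp from that of CG15544 (146). Just outside the rule were summits 500 bp from the start of Ac3 (signal 166), 496 bp from CG12224 (151) and 495 bp from Np (199). Within 100 bp beyond the limit there were 34 members with a mean A+T content of 67.3%, and within 100 bp on the near side of it 48 summits outside genes with 68.9%.

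Intergenic peaks were unevenly spread over the chromosomes. Arm 3L held 256 of the 684, which is 28.6 per eligible Mb (exact Poisson 95% interval 25.2 to 32.3), against 17.7 over all chromosomes (16.4 to 19.1). The replicate lists gave 29.5 and 27.2 per Mb on 3L. Chromosome X held 44, or 8.39 per Mb (6.10 to 11.3), with 8.20 and 7.82 in the replicate lists, and chromosome Y held none in 2.34 Mb (0 to 1.58).

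The remaining arms lay between these. Arm 3R had 151 peaks (19.7 per Mb), 2L had 126 (18.8 per Mb) and 2R had 96 (12.9 per Mb). The small chromosome 4, which is largely heterochromatic but carries active genes, had the highest density, 44.9 per Mb, from only 11 peaks (22.4 to 80.2), and each replicate list gave 48.9. Its ratio to all chromosomes, 2.53, was 1.38 among the 1694 highest peaks and 6.55 with transposable elements counted as genes. The intergenic share of all IDR peaks ran in another order, from 28.0% on 3L through 20.8% on 3R, 19.3% on 2L, 18.5% on 2R and 16.7% on chromosome 4 to 8.63% on X. Chromosome X thus held 510 IDR peaks of any kind, close to the 520 of arm 2R, but 44 intergenic ones against 96.

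**Figure D2:**
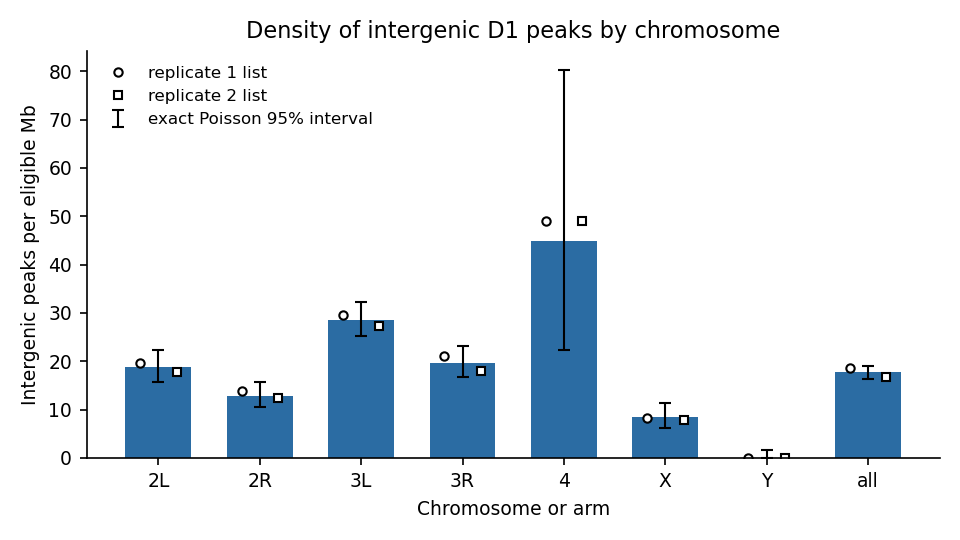
Intergenic peaks per Mb of eligible sequence for each chromosome or arm and for all together, as bars with exact Poisson 95% intervals and the values of each replicate's own highest 3388 peaks as open symbols. Chromosome 4 and 3L stand highest with 44.9 and 28.6 per Mb, X has 8.39 and Y has 0.

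Sequence near the centromeres was nearly empty of intergenic peaks. The centromere-proximal ends of the 5 large arms, with limits set here at whole Mb, together with the Y held 31.3% of eligible sequence and 2 of the 684 peaks. One was in the gap beside the wing selector gene ap, and the other beside Haspin, a histone kinase gene. Annotated transposable elements covered 10.6% of eligible sequence, and 4 members (0.585%, interval 0.160 to 1.49%) had their summit in one. Of eligible bases 71.0% were unique at the level of 31-base words, while 670 of the 684 member windows were unique throughout. The authors' handling of reads that match several places is unknown, and the part of mapping in these counts was not tested.

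Without the centromere-proximal ends and the Y, the density over all chromosomes was 25.7 per Mb, with 43.8 on 3L, 23.7 on 2R, 23.1 on 3R, 22.2 on 2L, 10.3 on X and 44.9 on chromosome 4. The low value of 2R over its whole length thus went with its large centromere-proximal part, whereas 3L stayed high and X stayed low. Counting only unique eligible sequence gave 39.6 per Mb on 3L, 11.5 on X and 75.01 on chromosome 4, against 24.9 over all. The Y had only 0.360 Mb of such sequence, too little to bound its density as closely as the whole of its eligible sequence does.

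Although every member is more than 500 bp from a start, members crowded towards starts. The median distance to the nearest start was 2730 bp, with 2833 ± 149.9 bp in the replicate lists (SD, n = 2), against 6333 bp over all eligible positions. Density fell at each step away from starts: 44.9 peaks per Mb at 500 to 1000 bp, 33.7 at 1 to 2 kb, 20.9 at 2 to 5 kb, 17.97 at 5 to 10 kb, 10.2 at 10 to 20 kb and 2.24 beyond 20 kb. Outside the centromere-proximal ends and the Y, these densities were 47.8, 36.2, 23.2, 21.2, 15.4 and 12.8 (7.95 to 19.6) per Mb, and the medians were 2733.5 bp for members and 4089 bp for eligible positions. The fall was thus shallower there, with the largest change in the class beyond 20 kb. The member farthest from any start lay 43209 bp from lncRNA:CR40341 on 2L, with a signal of 195 and replicate values of 85.6 and 114.

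Short gaps between genes were denser in peaks than long ones. A gap is a run of sequence outside all genes, and gaps under 2 kb held 79 peaks at 53.5 per Mb (42.3 to 66.7), whereas gaps of 50 kb or more held 31 at 2.77 per Mb (1.89 to 3.94). In between, density was 35.9, 26.7, 23.1 and 13.8 per Mb for gaps of 2 to 5, 5 to 10, 10 to 20 and 20 to 50 kb. Much of the longest class lies near centromeres, and outside those ends and the Y it had 15.9 per Mb, close to the 16.9 of gaps of 20 to 50 kb. Very long gaps elsewhere could still be empty, such as 80519 bp on 3R from position 14923762 and 73549 bp on 3L from position 18323986, neither of which held a member.

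**Figure D3:**
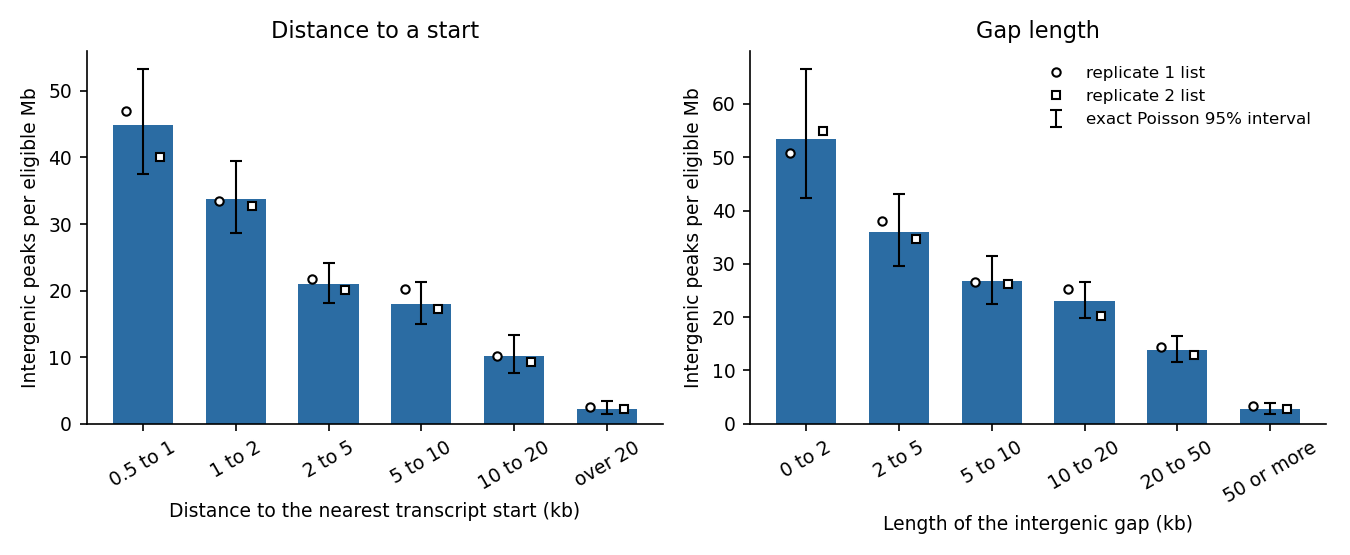
Intergenic peaks per eligible Mb by distance of the summit to the nearest transcript start (left) and by length of the intergenic gap (right), with exact Poisson 95% intervals and the replicate lists as open symbols. Density falls from the leftmost to the rightmost class in both panels, to 2.24 per Mb beyond 20 kb from a start and 2.77 per Mb in gaps of 50 kb or more; outside the centromere-proximal ends and the Y these were 12.8 and 15.9 per Mb.

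Orientation of the flanking genes made a smaller difference. Gaps between divergent genes held 175 peaks at 22.995 per Mb (19.7 to 26.7), tandem gaps 359 at 18.3 (16.5 to 20.3) and convergent gaps 149 at 14.8 (12.6 to 17.4). Outside the centromere-proximal ends and the Y the values were 27.8 (23.8 to 32.2), 26.7 (24.01 to 29.6) and 22.6 (19.1 to 26.5), with intervals that overlap. The nearest gene edge was a 5′ end for 349 members and a 3′ end for 335, but less eligible sequence lay nearest a 5′ end (43.6%) than a 3′ end (52.9%). Density was therefore higher nearest 5′ ends, at 20.7 per Mb (18.6 to 23.01), than nearest 3′ ends, at 16.4 (14.7 to 18.3). The cause of this difference was not tested. Both densities cover all eligible sequence, and they were not computed without the centromere-proximal ends and the Y. Convergent gaps hold no start at their own edges, and members there were farther from any start, with a median of 3554 bp against 2438 bp in divergent gaps.

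Many members shared a gap with another member. The 684 peaks lay in 461 of 6615 gaps with eligible sequence, and 345 of them (50.4%) shared their gap with at least 1 other member. The share was 54.8% in the list of replicate 1 and lower in that of replicate 2, an SD of 3.30 points around their mean. Gaps with 4 or more members numbered 23 and held 118 peaks. Some members of a gap were neighbouring calls with overlapping intervals, such as a pair beside CG12268 with summits 209 bp apart. Another member lay within 1000 bp of 129 members (18.9%). Overlapping calls were not merged in the counts by gap, 250 kb window or gene list, so these are counts of calls and not of separate sites. Another IDR summit of any kind lay within 5 kb of 57.6% of members and of 54.4% of the other IDR peaks, which is similar. The share of members in shared gaps that gap lengths and peak number alone would give was not computed.

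The gap with the most members was the 75047 bp on 3L between NijA, a gene for the cell surface protein Ninjurin A, and CG43245. It held 10 IDR members, with signals between 209 and 513 and a mean A+T content of 71.7%, and the replicate lists had 15 and 11 there. Another dense gap, 18664 bp on 3R between CG18404 and lncRNA:CR46113, held 9 members with signals between 156 and 600, and 9 and 7 in the replicate lists. The next coding gene beyond it is heca (headcase), which is required in imaginal cells that form adult tissue at metamorphosis.

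The next 4 gaps held 6 members each. One, the 14917 bp between HGTX, a homeobox gene, and shd (shade), which encodes the enzyme that makes 20-hydroxyecdysone, had signals between 160 and 246. The others were the 26875 bp between CG17154 and vers, the 16910 bp between lncRNA:CR45036 and lncRNA:CR42755, and the 34706 bp between CG15258 and lncRNA:CR44859. The replicate lists held 9 and 7, 6 and 4, and 7 and 5 members in these 3 gaps, and 6 and 5 beside shd. These gaps were picked by their IDR counts, which rest on the data of both replicates, so the replicate counts are a description only.

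At a coarser scale, 10 windows of 250 kb held 10 or more members each and together 133 of the 684 (19.4%), out of 252 such windows with any member. Arm 3L had 98 of its 256 members in them. One, chr3L:18000001-18250000, had 19 members in 86.0 kb of eligible sequence, with 20 in each replicate list and a median signal of 285. It spans hid, a central inducer of apoptosis, and the edge of Eip75B, an ecdysone-induced nuclear receptor gene. The windows, and hid among the genes, were chosen after the values were seen.

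Members in the hid window were on both sides of that gene. A peak 379 bp beyond its 3′ end had a signal of 276 (126 in replicate 1 and 144 in replicate 2), and one 7468 bp upstream of its 5′ end had 486 (239 in replicate 1 and 253 in replicate 2). Between lncRNA:CR45935 and lncRNA:CR45937 in the same window, the highest peak had 510, with 262 in replicate 1 and 244 in replicate 2. The peak 591 bp from Eip75B had 285, with 111 in replicate 1 and 159 in replicate 2.

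A window on 3R, chr3R:21750001-22000000, had 14 members in 64.5 kb of eligible sequence, and its right-hand part leads to Eip93F, an ecdysone-induced transcription factor gene needed for larval cell death and adult development. The gap of 33567 bp between Qsox2 and Eip93F held 5 members. The highest, 11843 bp from Eip93F, had a signal of 461, with 292 in replicate 1 and 180 in replicate 2. In the same window a gap of 8507 bp between the gustatory receptor genes Gr93a and Gr93b held 5 members with signals between 159 and 380. On 3L, the window with hry (hairy), a bHLH repressor gene of segmentation and bristle patterning, held 12, of which 5 lay in the 24747 bp between Pex7 and hry.

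Flanking genes were then grouped into 15 lists by function. A member was counted for a list when the nearest protein-coding gene on either side belonged to it (for RNA gene lists, the nearest gene of any kind), and the count was set against the eligible sequence flanked in the same way. Densities are per eligible Mb, against 17.7 for all eligible sequence and 25.7 for eligible sequence outside the centromere-proximal ends and the Y. The intervals cover counting error only and are too narrow where members cluster at 1 gene. The count at the leading gene is therefore given with them. A member with list genes on both sides was counted once for the list but at each gene.

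Ecdysone response genes, the targets of the steroid pulse that drives metamorphosis, had 11 members in 0.118 Mb, or 93.3 per Mb (46.6 to 167), with 119 and 84.8 in the replicate lists. Of these, Eip93F flanked 5, Eip75B, Eip63E and ImpE2 flanked 2 each, and ImpL2 and Ldh 1 each. Some peaks were counted at both flanking genes. Without Eip93F the density was 70.7 (25.9 to 154). Proneural bHLH and E(spl) genes, which select neural precursors, had 13 members or 87.3 per Mb, but 10 of them flanked hry. Without hry, 34.9 per Mb remained from 3 peaks (7.20 to 102), so that density rested on 1 gene.

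Hox genes, which set segment identity, had 9 members or 64.6 per Mb (29.6 to 123). The members flanked 6 of the 8 genes, with some counted at both of their flanking genes. Counts were 3 each at Dfd and Scr and 2 at Antp, and 8 members remained without Dfd. The highest, 8224 bp from abd-A, had a signal of 283, with 124 in replicate 1 and 172 in replicate 2. A member 5254 bp from lab had 265, with 102 in replicate 1 and 164 in replicate 2. These were moderate signals: the abd-A peak was number 130 of the intergenic peaks by signal.

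Developmental transcription factors outside the Hox and homeobox lists had 46 members at 30.9 per Mb (22.7 to 41.3), 10 of which were the ones at hry, and 25.3 per Mb without that gene. Outside the centromere-proximal ends and the Y the value was 31.2 (22.8 to 41.6), an interval that includes the 25.7 of all such sequence. Their next highest after hry was a peak 874 bp from Sox21b with a signal of 367, with 163 in replicate 1 and 204 in replicate 2. Other homeobox genes had 38 members at 22.05 per Mb (15.6 to 30.3), an interval that includes the value of all eligible sequence, and 27.4 (19.3 to 37.7) outside those ends and the Y. HGTX flanked 7 of the 38. The highest lay 3735 bp from ct (cut), with a signal of 372, and next was one 5410 bp from pdm3 with 334.

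Secreted signalling ligands had 12 members at 32.8 per Mb (17.0 to 57.4), with 3 each at dpp, pyr and ths. Some ligand members were counted at both flanking genes. The peaks at Ser, a Notch ligand gene, and ths, a fibroblast growth factor gene, were the highest, with signals of 288 and 262. Ion channel genes had 11 members at 54.7 per Mb (27.3 to 97.9), of which 3 flanked ppk, and the highest were a pair beside ppk23 with signals of 406 and 314. Cuticle protein genes had 9 at 31.5 per Mb (14.4 to 59.8), with 2 at Cpr72Ea, and the highest were at Cpr72Ea (416) and Cpr72Eb (325).

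The lowest density of the 15 lists was that of a group of neuronal adhesion genes. The dpr, DIP, beat and side families, immunoglobulin-type adhesion proteins of neurons, are flanked by 1.76 Mb of eligible sequence and had 2 members, at dpr17 (signal 235) and beat-IIb (177), or 1.13 per Mb (0.137 to 4.10). The replicate lists gave 2.83 and 1.13, and outside the centromere-proximal ends and the Y the density was 2.01 (0.243 to 7.24). Neurotransmitter and neuropeptide receptor genes had 5 at 7.48 per Mb (2.43 to 17.5), or 8.09 (2.63 to 18.9) outside those ends and the Y, with 2 at nAChRalpha7, and their highest were at Octbeta1R (251) and sNPF-R (249). Axon guidance genes had 12 members at 15.2 per Mb (7.83 to 26.5), 3 of them at trn, and their highest were at drl (315) and robo2 (312). None of the sequence beside them lies in the centromere-proximal ends or the Y, and their value was below the 25.7 per Mb of the sequence outside these, which the interval includes.

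Chemoreceptor genes had 15 members at 12.8 per Mb (7.17 to 21.1), 8 of them beside Gr93a, and 13.9 (7.80 to 22.98) outside the centromere-proximal ends and the Y, and their highest were at Ir68a (418) and Gr93d (392). Transfer RNA genes had 16 at 28.3 per Mb (16.2 to 45.9), with 3 each at tRNA:Gly-GCC-1-7 and tRNA:Ile-TAT-1-2 and the highest at tRNA:Lys-CTT-1-11 (327) and tRNA:Gly-GCC-1-4 (282). MicroRNA genes had 1, at mir-280 with a signal of 158, or 2.17 per Mb (0.0550 to 12.1), and 4.92 (0.125 to 27.4) outside those ends and the Y. Other non-coding RNA genes flanked 316 members at 19.9 per Mb (17.8 to 22.2), 10 of them at lncRNA:CR46113, with 25.1 (22.4 to 28.1) outside those ends and the Y, and the highest were at lncRNA:CR46113 (600) and lncRNA:CR44544 (532).

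**Figure D4:**
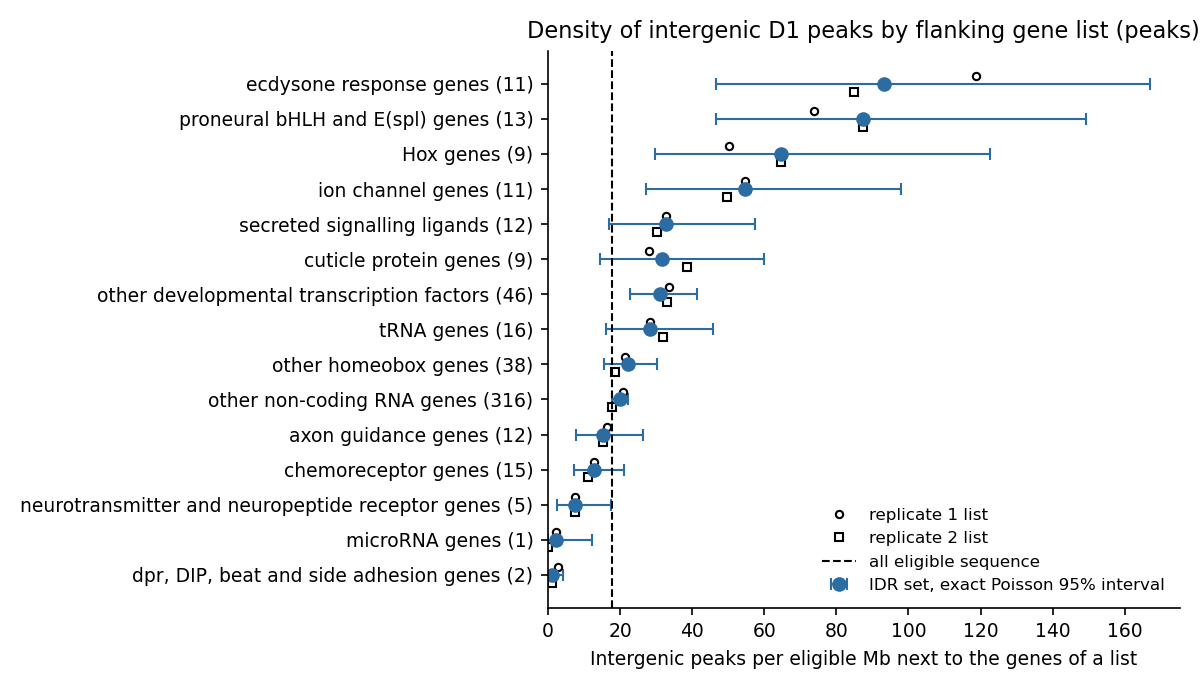
Intergenic peaks per eligible Mb flanking the genes of each list, with the number of peaks in brackets, exact Poisson 95% intervals as bars and the replicate lists as open symbols; the dashed line is all eligible sequence at 17.7 per Mb. Ecdysone response, proneural and Hox lists lie to the right with 9 to 13 peaks each, and the dpr, DIP, beat and side list lies at 1.13 per Mb.

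Base composition was measured in the 200 bp windows around the summits. Intergenic peaks had a mean A+T content of 67.1% (SD over peaks 6.65), with 66.8% ± 0.773 in the replicate lists (SD, n = 2). All 192860 eligible windows, taken end to end with no sampling, had 59.3%, a difference of 7.74 points against a replicate SD of 0.773. Of the members, 605 were above that mean. Peaks inside genes had 66.4% and peaks near starts 66.5%, and the difference between intergenic and all other IDR peaks, 0.63 points, was close to its replicate SD of 0.50 and was 1.22 points with a start limit of 250 bp.

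The enrichment in A+T was local. Each value of the profile by position is an average over neighbouring bases as well as over peaks. A+T content was 69.0% around the summits of intergenic peaks and dropped below the eligible mean within 200 bp on both sides. It was 56.3% at 300 bp upstream and 55.6% at 300 bp downstream on the plus strand. The replicate lists had 69.6% and 67.2% at the summit. Peaks inside genes had nearly the same profile, with 69.1% at the summit, whereas peaks near starts kept 58.3 and 58.6% at 300 bp. In windows of 100 bp the difference from eligible sequence was 8.96 points, and in windows of 500 bp 3.03 points.

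**Figure D5:**
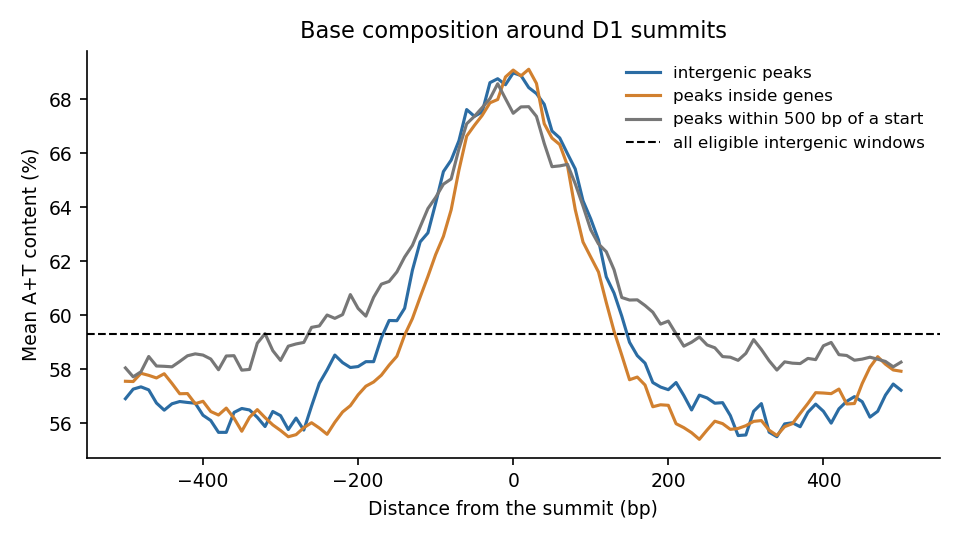
Mean A+T content in percent by distance from the summit in bp, for intergenic peaks, peaks inside genes and peaks within 500 bp of a start, with the mean of all eligible intergenic windows as a dashed line. Values are averaged over neighbouring bases. Each group is highest within 20 bp of the summit, the intergenic one at 69.0% where the plotted distance is 0, and intergenic peaks lie below the dashed line 300 bp away.

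Higher peaks were slightly richer in A+T. Split by signal into 4 parts of 171, highest first, the members averaged 68.5, 66.9, 66.8 and 66.1%, and Spearman's rho of signal with A+T content was 0.11 over the 684 peaks, a weak relation given as a description. The longest A/T run in a window averaged 14.4 bp at members and 10.99 bp in eligible windows, and runs of 20 bp or more were in 14.2% of member windows and 5.75% of eligible ones. Peaks near starts had such runs in 18.6%.

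Short words were counted on either strand in the same windows. AATAT, the unit of a satellite on which D1 is known to lie, was in 76.6% of members (73.3 to 79.7) and 52.1% of eligible windows, with 77.5 and 73.4% in the replicate lists. The difference of 24.5 points was 10.2 points in windows of 500 bp. Peaks inside genes had it in 75.1% and peaks near starts in 74.0%. The part of base composition in these shares was not tested. A pair of AATAT units in tandem was rare, in 14 members (2.05%, 1.12 to 3.41) and 0.503% of eligible windows.

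The other A/T-rich words were also in a larger share of members than of eligible windows. A run of 8 A (AAAAAAAA) was in 13.6% of members (11.1 to 16.4) and 10.4% of eligible windows. Outside the centromere-proximal ends and the Y it was in 11.4% of eligible windows, which the members' interval includes. Its share was larger in peaks inside genes (21.4%) and in peaks near starts (18.9%) than in members. The alternating word ATATATAT was in 5.85% of members and 3.14% of eligible windows, with 3.699% inside genes and 5.66% near starts. TATAAA, the letters of the TATA box, were in 38.6% of members and 23.2% of eligible windows, with 39.6% inside genes and 39.9% near starts, close to the members' share.

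Words of known promoter and insulator factors were rare in members or no more common than in other intergenic sequence. GGTCACACT, which overlaps the element bound by M1BP at housekeeping promoters, was in 0 of 684 members (upper bound 0.538%), 0.0985% of eligible windows and 1.81% of peaks near starts. TATCGATA, the DREF element of promoters, was rare but in a larger share of members than of eligible windows. It was in 8 members (1.17%, 0.506 to 2.29), 0.451% of eligible windows and 3.07% of peaks near starts. The replicate lists had it in 0.699 and 1.08%. GAGAG, bound by GAGA factor, was in 17.0% of members and 20.9% of eligible windows, and CGATA, bound by BEAF-32, in 19.9% and 20.2%. CAGGTAG, the Zelda element, was in 1.17% and 0.903%.

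The G/C-richer words CACGTG, an E-box, and AGGTCA, a nuclear receptor site, were less frequent in members, in 0.731% and 2.92%, than in eligible windows, in 2.18% and 5.11%. All counts are of letters only and say nothing of whether a factor was bound. The word TATCGATA contains CGATA, and a tandem AATAT pair always holds AATAT itself.

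Going down the pooled list, intergenic peaks became a larger share and changed in kind. They were 20.2% of ranks 1 to 3388, 21.2% of ranks 3389 to 10000, 23.2% of ranks 10001 to 20000 and 26.0% of ranks 20001 to 30000. Their mean A+T content was 67.1, 64.0, 61.2 and 60.1% in the same order, approaching the 59.3% of eligible sequence. The share on X grew (6.43, 9.19, 10.2 and 13.0%), that on 3L shrank (37.4, 34.97, 32.3 and 29.8%), and the share in transposable elements was 0.585, 1.64, 1.90 and 2.12%. Each replicate's own list had 25.03 and 25.7% intergenic peaks in its last 10000 ranks, against 21.1 and 19.1% in its first 3388.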

How the data were processed

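Chromatin of whole pupae was sonicated (size range 200 to 800 per the labels) and precipitated with anti-GFP in 2 biological replicates of 1 group. Per the deposited text notes, the authors called peaks on each replicate and on both pooled, with a control file, and derived the IDR set from these lists. Every deposited list has a signal column and a column of −log10 q-values from the authors. The highest q-value is shared by 2286 IDR peaks (462 of the members), so signal was used for ranking. Alignment and peak calling software, the cut used for IDR and the unit of the signal were not given in the sources used here, and read depth is unknown.

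Positions are 1-based on dm6, with the NCBI sequence of assembly release 6 and Ensembl annotation release 115. The spread is the SD over the 2 replicates' own 3388 highest peaks. Composition and words used 200 bp windows, against all non-overlapping eligible windows. Exact Clopper-Pearson and Poisson 95% intervals cover counting error only. Neighbouring peaks are not independent, so the intervals are too narrow to an unknown degree. The centromere-proximal parts were set as the first 6 Mb of 2R and 4 Mb of 3R, and as everything beyond 22 Mb on 2L and X and beyond 23 Mb on 3L. No p-value is given: 1 group was measured, and peaks are not replicates.

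Named genes flank the 12 highest members, the highest member of each chromosome, the 6 fullest gaps, the members with extreme composition or distance, the members nearest the 500 bp limit, and up to 2 members of each of the 15 gene lists. Other names were chosen after their values were seen, among them the genes of the 250 kb windows. The members, words and lists were chosen with earlier results of these data known, and list symbols were respelled to the annotation after the first counts; Eip55E, Eip71CD, Her and ork1 matched no gene. Alternatives were each replicate alone, the 1694 highest peaks, coverage in both replicate lists, other start distances, gene sets, windows, gap limits and peak midpoints. Restricting to chromosomes outside the centromere-proximal parts, or to unique sequence, was added after seeing the data. The calculations were tested on simulated data. Tools were Python 3.11.15, numpy 2.4.6, pandas 2.3.3, scipy 1.17.1 and matplotlib 3.10.9.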

Additional observations from a re-analysis of the deposited data

How the results depend on the processing

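Of 114 values over 12 results and 17 settings, 76 stayed within 1 replicate SD (counts within 1.5 times) and 38 moved. None changed direction, which only the A+T and AATAT differences and the chromosome 4 and 3L ratios could do. Some settings could hardly move a value. Of the 684 members, 654 had a width of 420 bp, and the peak midpoint gave 684 members and a median start distance of 2731 bp. Coverage in both replicate lists kept 678 members. The settings with 1 replicate were judged by an SD taken from those same lists. With each replicate alone, the A+T difference from eligible sequence was 6.97 to 8.06 points, the AATAT difference 21.3 to 25.4 points, the chromosome 4 ratio 2.64 to 2.92, the share of members that share a gap 50.2 to 54.8%, the share in gaps of 20 kb or more 23.1 to 23.6%, and the median start distance 2727 to 2939 bp. The 1694 highest peaks gave 342 members, a chromosome 4 ratio of 1.38, 40.4% sharing a gap, 22.2% in long gaps and a median of 2508 bp. With starts more than 250 bp away, the intergenic share was 26.0%, the A+T difference from other peaks 1.22 points, the chromosome 4 and 3L ratios 2.09 and 1.54, 46.7% shared a gap, 18.7% lay in long gaps and the median was 1610.5 bp. With 1000 bp these were 16.4% intergenic, 27.0% in long gaps and 3686 bp. With protein-coding genes only, 24.2% were intergenic, the chromosome 4 ratio was 2.26, 61.2% shared a gap, 42.4% lay in long gaps and the median was 4032 bp. Counting transposable elements as genes gave 6.55 for chromosome 4, 17.2% in long gaps and 2504 bp. Windows of 100 and 500 bp gave A+T differences of 8.96 and 3.03 points, and 500 bp an AATAT difference of 10.2 points. Gap limits of 10 and 50 kb gave 50.4% and 4.53%. Outside the centromere-proximal parts the chromosome 4 and 3L ratios were 1.75 and 1.71, and in unique sequence 3.01 and 1.59; both settings were chosen after seeing the data. The chromosome 4 ratio rests on 11 peaks. Beyond what a setting changes by its own construction, the causes were not tested. No paired analysis was possible because only 1 group was measured.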

Other observations

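All 8192 words of 7 letters (a word and its reverse complement counted as 1) were ranked by their share of member windows over their share of eligible windows outside the centromere-proximal parts and the Y, among the 972 words that at least 30 members held. The word with the highest ratio, AGTGTAG, was in 40 members (5.85%) and 1.42% of eligible windows, with 5.87 and 5.11% in the replicate lists. Peaks inside genes had it in 3.56% and peaks near starts in 1.65%. Next came CACTGTA (5.56% of members and 1.52% of eligible windows), CAGTGTA (7.02% and 1.93%), ACTGAGA (7.16% and 2.03%) and CACTGAG (6.87% and 2.01%). Several of these words overlap each other in letters. AGTATGC was in 6.43% of members and 1.97% of eligible windows, and in 3.001% of peaks inside genes.

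These words hold several C or G bases, unlike the A/T-rich words counted above. AGTGTAG occurred at 0.307 per kb within 100 bp of member summits, 0.128 per kb at 100 to 300 bp and 0.0475 per kb at 300 to 500 bp. CACTGAG occurred at 0.402, 0.223 and 0.0804 per kb over the same distances. At the other end of the ranking, ACACACA was in 4.39% of members and 8.18% of eligible windows, and occurred at 0.322 per kb within 100 bp of summits but 1.32 per kb at 300 to 500 bp. The words were chosen from the ranking on the same peaks, so the highest ratios are too high to an unknown degree. The minimum of 30 members, or 4.39% of them, was also set on these peaks. A word rarer than that in eligible windows entered the ranking only when its share of members was higher. ACACACA was at the minimum, and words in fewer members were not ranked. The per kb values come from the same peaks and the replicate shares from the same libraries, so neither is a separate test. No factor is assigned to any of these words.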
